A study of Mus musculus with 8 samples.

Results

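Regulatory T cells (Tregs), the CD4 T cells that express the transcription factor Foxp3 and restrain immune responses, were compared between skin and spleen in mice whose Pparg gene was intact. The comparison set 2 libraries from skin (group WT skin) against 2 from spleen (group WT spleen), 4 of the 8 RNA sequencing libraries of the study, and covered all 12414 genes with enough reads to test. All mice carried Foxp3-Cre, which drives Cre recombinase in Foxp3-expressing cells, were untreated and were 2 weeks old (day 13 in the sample titles). The genotype was Pparg+/+ Foxp3-Cre here and Ppargf/f Foxp3-Cre in the other 4 libraries (groups KO skin and KO spleen), which also entered the fit and serve below as a second comparison of the same tissues. Each library was made from 1000 cells sorted in 2 rounds. How many animals lie behind a library, and how cells were freed from skin, is not stated in the labels.

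Tregs leave the thymus with a recirculating program. They carry receptors such as CCR7, which lets T cells enter lymphoid organs from blood, and transcription factors of the resting state such as TCF7, LEF1 and KLF2. Tregs that settle in skin are known to exchange this for an effector program led by factors such as GATA3, RORA and BATF, receptors that hold them in the tissue, and secreted products such as interleukin 10 (IL-10) and the growth factor amphiregulin (Areg). Young mouse skin receives a wave of Tregs early in life. PPARγ, the product of Pparg, is a nuclear receptor that binds fatty acids and is best known from fat tissue Tregs.

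The 4 WT libraries held 3115832 to 4466963 counts, and 17262 to 19274 genes had a count in each. Replicate 1 of every group carried the female transcript Xist and replicate 2 carried Y-linked transcripts, so the replicates of a group differ in sex, and p-values measure the spread between these samples only. Levels are given as CPM (counts scaled to a common library size by TMM, edgeR's trimmed mean of M-values) for replicates 1 and 2 of a group in that order. Changes are edgeR log2 fold changes of skin over spleen ± an approximate standard error (SE). This SE is the absolute log2 fold change divided by the square root of the F statistic of the test below. A change is called where the adjusted p of edgeR's quasi-likelihood test (Benjamini-Hochberg over all 12414 genes) is under 0.05. The 100 most abundant genes took 26.7% and 28.3% of the counts in skin and 22.3% and 21.9% in spleen. The first principal component of all 8 libraries held 64.6% of the variance and had every skin library on one side and every spleen library on the other.

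Skin and spleen Tregs differed in 3944 of 12414 genes (31.8%), of which 2059 (16.6% of genes tested) were higher in skin and 1885 (15.2%) were lower. More than 4-fold changes were found for 481 higher and 483 lower genes, and more than 16-fold changes for 69 higher and 44 lower genes, while the median log2 fold change of all genes was -0.04. The counts of higher and of lower genes both fell when any single WT library was left out, so both rested in part on the number of libraries. Requiring a change beyond 1.5-fold left 1033 higher and 844 lower genes.

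**Figure D1:**
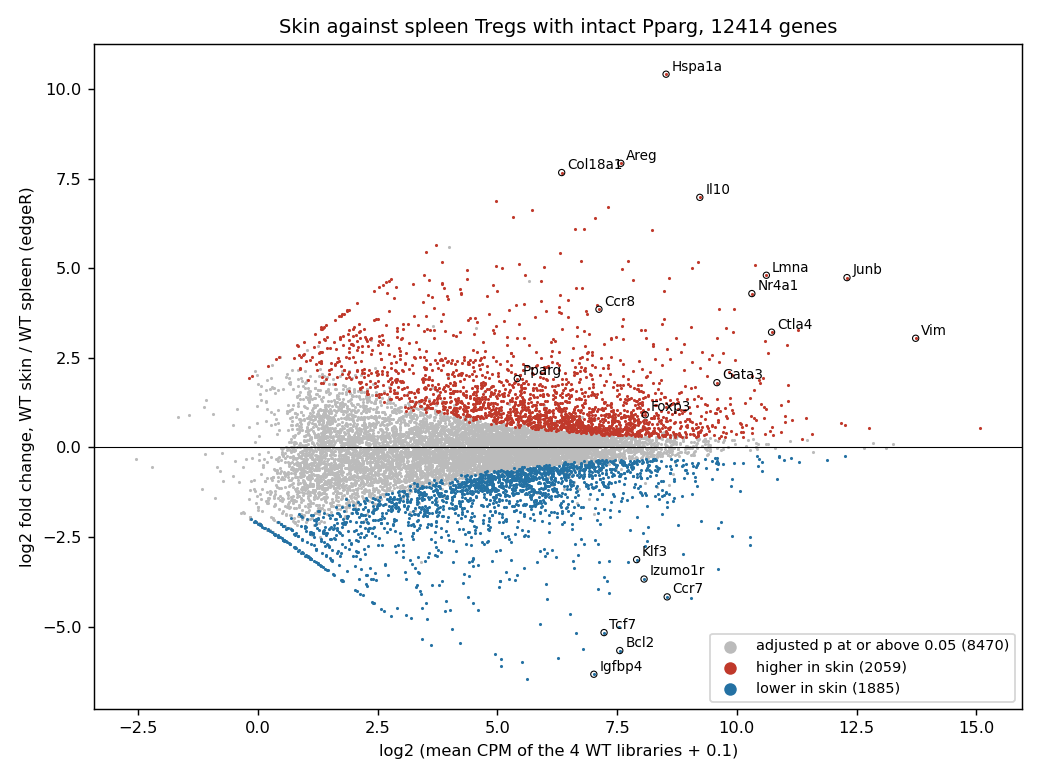
Each point is 1 of 12414 genes, placed by its mean level in the 4 WT libraries (x axis, log2 of CPM plus 0.1) and its log2 fold change of WT skin over WT spleen (y axis). Red points (2059) were higher and blue points (1885) lower in skin at an adjusted p under 0.05 in edgeR, and Hspa1a, Areg, Col18a1 and Il10 stand at the top while Igfbp4, Bcl2 and Tcf7 stand at the bottom.

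Foxp3 itself (chromosome X, 7573644 to 7595245, mm10), the factor that defines the lineage, was present in all libraries and higher in skin. It stood at 330.3 and 380.1 CPM in skin against 203 and 174 CPM in spleen, a change of 0.91 ± 0.134 (edgeR adjusted p = 4.87e-05). Pparg (chromosome 6, 115360951 to 115490399) stood at 75.7 and 59.8 CPM in skin against 22.5 and 12.3 CPM in spleen, and both skin libraries lay above both spleen libraries. Its change was 1.92 ± 0.310 (edgeR adjusted p = 1.21e-04). The counts are per gene and do not resolve exons.

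Genes of Treg identity and of the IL-2 receptor moved in both directions, 12 of 21 higher and 6 lower, with a median of 0.63. Counts of this and of later lists stand beside 16.6% higher and 15.2% lower over all genes tested. The inhibitory receptor gene Ctla4 had the strongest evidence, at 3245 and 2867 CPM in skin against 335 and 322 CPM in spleen (3.22 ± 0.0977, edgeR adjusted p = 1.79e-13). The costimulatory receptor genes Tnfrsf9 (2.65), Tnfrsf4 (1.39) and Tnfrsf18 (1.34), the actin-capping gene Capg (1.98) and the G protein regulator gene Rgs16 (3.63) also rose on the log2 scale. The IL-2 receptor was split by chain: Il2ra, the high-affinity chain, rose by 0.81 and Il2rb changed by -0.59. Izumo1r, which encodes folate receptor 4, fell from 496 and 496 CPM in spleen to 41.2 and 35.2 CPM in skin (-3.67 ± 0.164). Nrp1, used as a marker of thymus-derived Tregs, was at 171 and 98.9 CPM in skin against 443 and 399.5 CPM in spleen (-1.63). Gpr83, another Treg gene, was at 17.3 and 2.49 CPM in skin against 395 and 330.3 CPM in spleen, and its change of -5.01 became -6.90 without WT skin replicate 1 and -4.35 without WT skin replicate 2. Helios (Ikzf2), like Nrp1 a marker of thymus-derived Tregs, was at 1237 and 1270.0 CPM in skin against 871 and 974 CPM in spleen. Cd4 (605 and 604 CPM in skin against 533 and 569.8 CPM in spleen) did not pass the test (edgeR adjusted p = 0.330).

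The genes with the largest increases had varied roles. Hspa1a, which encodes the inducible heat shock protein HSP70, had 845 and 625 CPM in skin against 0 CPM in both spleen libraries, and its pooled counts were 5181 in skin and 0 in spleen, at least 1957-fold higher when the spleen group is set at 3 counts. Its near-identical neighbour Hspa1b had 65.9 and 58.7 CPM in skin against 0 CPM in both spleen libraries, at least 163-fold higher, and reads cannot be assigned with certainty between these copies. The cell cycle inhibitor gene Cdkn1a stood at 299.9 and 331 CPM in skin against 2.11 and 2.86 CPM in spleen (6.72 ± 0.228). The stress-induced transcription factor gene Atf3 (105 and 105 CPM in skin, 0 and 1.14 in spleen), the small GTPase gene Gem (6.07 ± 0.212) and the tubulin gene Tubb6 (5.43 ± 0.255) rose with it. Col18a1, a basement membrane collagen gene, had 182 and 141 CPM in skin against 0 and 0.572 CPM in spleen, a ratio of pooled counts of 644 (95% interval 178 to 5321, counting error only). The iron-binding protein gene Ltf stood at 62.2 and 97.5 CPM in skin against 0 and 0.859 CPM in spleen, a ratio of 199 (67.6 to 966). Ctla2a, a cysteine protease inhibitor gene with a near-identical copy, stood at 294 and 224 CPM in skin against 3.51 and 1.43 CPM in spleen. The chemokine gene Cxcl2 was at 42.2 and 10.3 CPM in skin against 0 CPM in both spleen libraries. Its pooled counts were 200 in skin and 0 in spleen, 75.5-fold higher with spleen set at 3 counts, which covers counting error only. All of these calls held without any single library, but the fitted log2 fold change of Atf3 (6.64) was 5.97 without WT spleen replicate 1 and 7.63 without WT spleen replicate 2, and that of Ltf (6.43) was 5.84 without WT spleen replicate 1 and 7.23 without WT spleen replicate 2. For Cxcl2 (5.65) it was 4.31 without WT skin replicate 1 and 6.36 without WT skin replicate 2, for Col18a1 (7.67) 8.26 without WT spleen replicate 2 and for Ctla2a (6.39) 7.05 without WT spleen replicate 1.

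The promoter of Hspa1a is shown because no other gene changed as much. The window runs from 250 bases before to 50 bases after the RefSeq transcription start (GRCm38.p6, chr17:34972107-34972406, minus strand), and capitals mark the match to a heat shock element core, GAANNTTC, searched on both strands. This core occurs in 5.54% of the 8914 tested genes that have a promoter in the table and in 6 of the 30 immediate early and heat shock genes that have one. A match of these letters is a description of the sequence, not a shown binding site.
Hspa1a: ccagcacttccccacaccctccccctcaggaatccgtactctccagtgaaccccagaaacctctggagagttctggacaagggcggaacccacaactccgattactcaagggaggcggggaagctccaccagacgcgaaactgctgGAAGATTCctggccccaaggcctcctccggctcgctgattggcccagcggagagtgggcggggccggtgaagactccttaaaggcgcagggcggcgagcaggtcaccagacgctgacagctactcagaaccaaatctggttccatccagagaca

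The genes with the largest decreases were equally varied. Bcl2, the anti-apoptotic gene (chromosome 1, 106538178 to 106714274), fell from 375 and 363 CPM in spleen to 6.17 and 7.47 CPM in skin (-5.67 ± 0.177, edgeR adjusted p = 2.11e-13). P2rx7, an ATP-gated channel gene, stood at 7.399 and 1.42 CPM in skin against 187 and 203 CPM in spleen (-5.18 ± 0.342). Art2b, a surface ADP-ribosyltransferase gene with a near-identical copy, was at 1.73 and 2.49 CPM in skin against 147 and 155 CPM in spleen (-5.87 ± 0.276). The surface receptor gene Treml2 had the lowest fold change of the ranked genes, -6.45, at 0.987 and 0 CPM in skin against 99.2 and 94.7 CPM in spleen. Igfbp4, an insulin-like growth factor binding protein gene of naive T cells, fell by 6.33 on the log2 scale. Dtx1 of the Notch pathway was at 0.740 and 0 CPM in skin against 52.4 and 80.7 CPM in spleen, and the sodium pump subunit gene Atp1b1 was at 0.740 and 1.07 CPM in skin against 99.9 and 79.3 CPM in spleen. Among the rest, the glutathione transferase gene Gsta4 changed by -5.91, the transcription factor gene Gata1 by -5.77, the GTPase-activating protein gene Arhgap20 by -5.47 and the protease gene Capn3 by -5.06. Ratios of pooled counts, spleen over skin, were 149 for Dtx1 (95% interval 50.6 to 724), 123 for Arhgap20 (33.8 to 1022) and 74.1 for Capn3 (25.1 to 362). Gabrr2 and St8sia1 had no count in either skin library. Their pooled counts were 55.3-fold and 49.1-fold lower than in spleen with skin set at 3 counts, which covers counting error only. Leaving out single libraries ended none of these calls but moved Treml2 to -7.48 without WT skin replicate 1, P2rx7 to -6.63 without WT skin replicate 1 and Dtx1 (-6.11) to -6.93 without WT skin replicate 1. Arhgap20 moved to -4.88 without WT skin replicate 1 and -6.15 without WT skin replicate 2, and Capn3 to -4.35 without WT skin replicate 1 and -5.98 without WT skin replicate 2. Lower expression per cell and fewer expressing cells cannot be told apart in these bulk libraries, here or in any result below.

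Transcription factors described from tissue and effector Tregs rose as a group, 20 of 24 tested members higher and 0 lower, with a median of 1.86. Gata3, the type 2 regulator that also sustains tissue Tregs, was at 1395 and 991 CPM in skin against 334 and 348 CPM in spleen (1.81 ± 0.134). Rora, a nuclear receptor gene of skin Tregs, was at 1151 and 1312 CPM in skin against 201 and 212 CPM in spleen (2.58 ± 0.185). Maf, which promotes Il10, was at 316 and 263 CPM in skin against 94.3 and 88.7 CPM in spleen (1.66 ± 0.138). The effector factors Prdm1 (Blimp-1, 2.31), Irf4 (1.91), Batf (1.26) and Id2 (3.07) also rose. Bhlhe40 (3.72), Crem (4.36) and the AP-1 member gene Fosl2 (235 and 208 CPM in skin, 2.11 and 3.43 in spleen) had larger fold changes. Rxra, the partner of PPARγ, changed by 1.75, and the glucocorticoid receptor gene Nr3c1 by 1.77. Tbx21 (11.3 and 19.2 CPM in skin against 10.1 and 34.9 CPM in spleen), the type 1 regulator gene, and Hif1a (295 and 497 CPM in skin against 272 and 331 CPM in spleen) did not pass. Of 21 genes that mark helper T cell lineages, including some named here, 13 had enough reads to test. Of these 5 rose and 3 fell, median 0.87. Il5, at 0 CPM in both spleen libraries, entered the test through skin, so these counts and the median describe the tested members only. Stat3 rose (0.92), and the signal transducer genes Stat4 (-1.07), Stat5a (-0.51) and Stat5b (-1.18) fell. Without WT spleen replicate 1 the Stat5a change was -0.47 and its call was lost. The type 1 cytokine gene Ifng was at 9.37 and 18.1 CPM in skin against 1.87 and 1.14 CPM in spleen.

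Transcription factors of the resting lymphoid state went the other way, 12 of 17 lower and 1 higher, median -1.26. Tcf7 (chromosome 11, 52252371 to 52283014), which maintains naive and stem-like T cells, was at 4.93 and 11.03 CPM in skin against 279.7 and 303 CPM in spleen (-5.17 ± 0.221, edgeR adjusted p = 1.87e-11). Its relative Lef1 changed less, at 99.6 and 98.2 CPM in skin against 381 and 384 CPM in spleen (-1.94 ± 0.118). Klf2, which drives the exit receptors of recirculating T cells, was at 7.89 and 6.41 CPM in skin against 45.6 and 50.1 CPM in spleen. Its relative Klf3 was at 49.3 and 48.04 CPM in skin against 417 and 446 CPM in spleen. The inhibitor gene Id3 (-4.06), the chromatin organiser gene Satb1 (-3.74), Bach2 (-3.17), Foxp1 (-1.26) and Foxo1 (-0.86) fell too. Id2 and Id3, which block the same E proteins, thus moved in opposite directions. The 1 member of the list that rose was Tox, at 474 and 499 CPM in skin against 192 and 187 CPM in spleen (1.35 ± 0.110), while Zeb1 (62.2 and 63.3 CPM in skin against 54.1 and 59.8 CPM in spleen) and Zbtb20 (67.6 and 56.9 CPM in skin against 77.9 and 83.6 CPM in spleen) were among the 4 that did not pass.

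**Figure D2:**
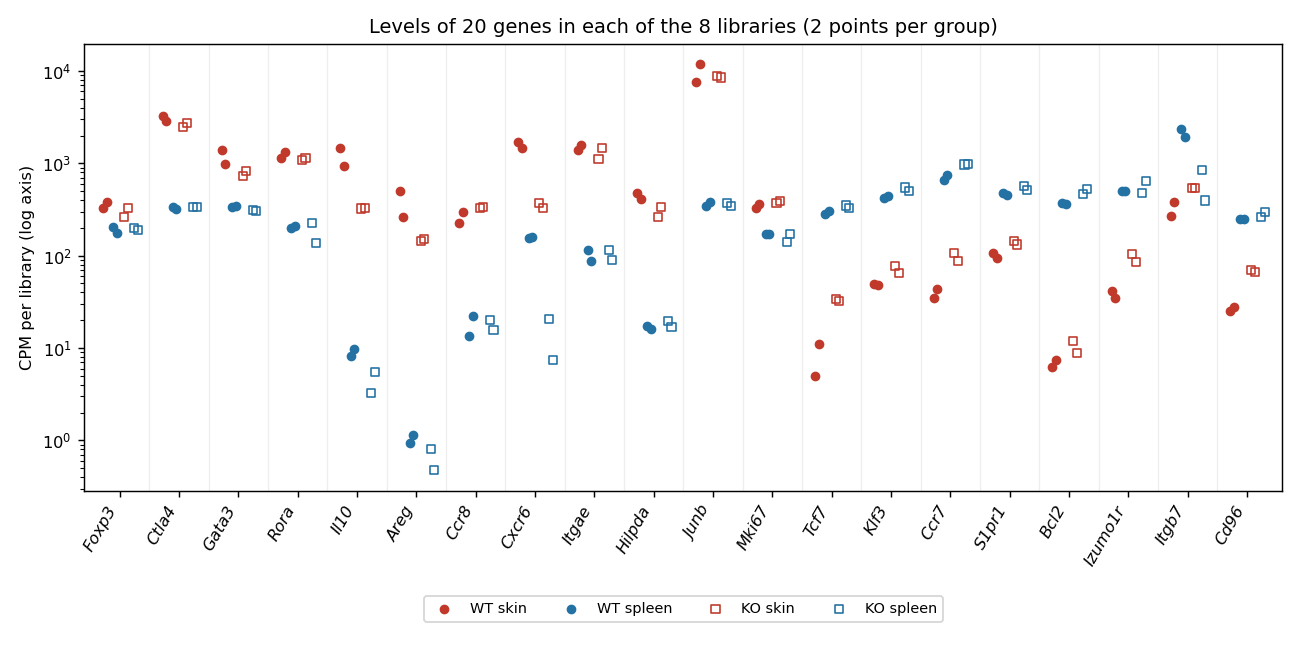
Level of 20 genes in each of the 8 libraries (y axis, CPM on a log axis), with filled circles for WT and open squares for KO, red for skin and blue for spleen. In WT, the skin points of the first 12 genes lie above the spleen points and those of the last 8 lie below, from Tcf7 at 4.93 and 11.03 CPM in skin to Cd96 at 25.4 and 27.8.

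Genes of lymphoid homing and recirculation fell. The list of 18 holds receptors but also Igfbp4 (-6.33), which is not a receptor gene. Of the 18, 15 were lower and 3 higher, median -2.47, the lowest of the 24 gene groups. Ccr7 was at 35.02 and 43.1 CPM in skin against 665 and 751 CPM in spleen (-4.17 ± 0.140). S1pr1, the receptor for exit into blood and lymph, was at 107 and 93.2 CPM in skin against 479 and 453 CPM in spleen. The gut-homing receptor gene Ccr9 (-4.53), the follicle receptor gene Cxcr5 (0 and 3.91 CPM in skin, 29.3 and 50.1 in spleen) and the integrin chain gene Itga4 (-2.74) were lower. Itgb7, the other chain of the gut-homing integrin, was at 266 and 379.7 CPM in skin against 2347 and 1947 CPM in spleen (edgeR adjusted p = 0.0123). The Itgb7 call was lost without WT spleen replicate 1 or 2, or WT skin replicate 1 or 2 (edgeR adjusted p = 0.0537 to 0.0819). The Cxcr5 change (-4.17) was -3.17 without WT skin replicate 1 and -6.26 without WT skin replicate 2. The KO levels of Itgb7 were 544 and 542 CPM in skin and 849 and 396 CPM in spleen. The 3 members that rose were P2ry10 (1.14), Gpr183 (1.01) and the IL-7 receptor gene Il7r (0.76).

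Chemokine and chemoattractant receptors of tissue T cells rose in 16 of 20 cases, median 2.33, and the prostaglandin receptor gene Ptger2 was the 1 that fell (-0.78, a call lost without WT spleen replicate 1, or WT skin replicate 2 (edgeR adjusted p = 0.0784 to 0.0883)). Ccr8, typical of skin Tregs, was at 225 and 296 CPM in skin against 13.3 and 22.04 CPM in spleen (3.85 ± 0.211). Ccr10, the receptor for a keratinocyte chemokine, was at 157 and 212 CPM in skin against 15.2 and 20.03 CPM in spleen (3.35 ± 0.196). Cxcr6 was among the most abundant, at 1706 and 1462 CPM in skin against 154 and 160.0 CPM in spleen (3.33 ± 0.330). Ccr1 (3.83), Cxcr4 (3.17) and the lipid receptor gene Gpr55 (3.65) rose by more than 8-fold. Ccr6 rose by 1.71, and the classical skin-homing receptor gene Ccr4 by 0.95. The Ccr4 call was lost without WT spleen replicate 1 or 2, or WT skin replicate 1 (edgeR adjusted p = 0.0750 to 0.0872). Ccr2 was at 2198 and 1174 CPM in skin against 339 and 278 CPM in spleen (edgeR adjusted p = 0.0297). The Ccr2 call was lost without WT spleen replicate 1 or 2, or WT skin replicate 1, or KO skin replicate 1 or 2 (edgeR adjusted p = 0.0701 to 0.155), and when all genes with a count were tested (edgeR adjusted p = 0.0689). Cxcr3 was at 107 and 117 CPM in skin against 109 and 242 CPM in spleen and Gpr15, a receptor for early seeding of skin, at 56.7 and 36.3 CPM in skin against 54.5 and 20.9 CPM in spleen, and neither passed. Xcr1, a receptor gene best known from dendritic cells, was at 90.8 and 87.2 CPM in skin against 7.72 and 2.003 CPM in spleen (4.01, or 5.15 without WT spleen replicate 1).

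Adhesion genes were 14 higher and 3 lower of 24, median 1.47. Itgae, the CD103 chain that binds E-cadherin on epithelium, was at 1381 and 1585 CPM in skin against 117 and 87.00 CPM in spleen (3.85 ± 0.192). Cd44, which binds hyaluronan, was at 1628 and 1885 CPM in skin against 191 and 185 CPM in spleen (3.22 ± 0.134). The glycosyltransferase genes Gcnt1 (4.46) and Fut7 (1.80), which build selectin ligands, rose, and Selplg, the protein they decorate, was at 1229 and 1165 CPM in skin against 1176 and 1136 CPM in spleen and did not pass. The integrin chains Itgav (1.28) and Itga2 (1.59) and Icam1 (2.83) were higher. Itgb1, the shared chain of collagen and fibronectin receptors, was at 107 and 106 CPM in skin against 835 and 832 CPM in spleen (edgeR adjusted p = 0.0238). This call was lost without WT spleen replicate 1 or 2, or WT skin replicate 1 or 2 (edgeR adjusted p = 0.0954 to 0.133), and when all genes with a count were tested (edgeR adjusted p = 0.0591). In KO it was at 322 and 208 CPM in skin and 541 and 194 CPM in spleen, a wide spread between replicates that enters the same fit. Without WT skin replicate 2 the lower count was 1. Itgal, a chain of LFA-1, was at 552 and 458 CPM in skin against 569.6 and 587 CPM in spleen and did not pass.

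Of 35 secreted mediators of suppression and repair 24 had enough reads to test, 17 of them higher and 1 lower. Several of these had almost no reads in spleen and entered the test through skin. The counts and the median of 2.82 therefore describe the tested members only and lean toward skin. Il10 (chromosome 1, 131019845 to 131024974) was at 1452 and 926 CPM in skin against 8.19 and 9.73 CPM in spleen (6.98 ± 0.254, edgeR adjusted p = 1.37e-09). Areg (chromosome 5, 91139599 to 91148432), an epidermal growth factor receptor ligand that promotes repair, was at 501 and 260.1 CPM in skin against 0.936 and 1.14 CPM in spleen (7.93 ± 0.396, edgeR adjusted p = 6.21e-08). The decoy receptor gene Il1r2 was at 114 and 112 CPM in skin against 7.02 and 5.15 CPM in spleen and Furin, a protease gene that matures TGF-β, at 143 and 151 CPM in skin against 14.5 and 14.6 CPM in spleen. Ebi3 (1.90), Lgals1 (2.10) and Lgals3 (2.75) rose, as did the cytotoxic protease gene Gzmb, at 2572 and 1131 CPM in skin against 143 and 112 CPM in spleen (edgeR adjusted p = 0.00857). Its log2 fold change of 3.85 was 3.14 without WT skin replicate 1, and the call was lost without WT spleen replicate 1 or 2 (edgeR adjusted p = 0.0645 to 0.0718). It was also lost when only the 4 WT libraries were fitted (edgeR adjusted p = 0.0503). The type 2 cytokine gene Il4 was at 12.8 and 11.03 CPM in skin against 0.936 and 0.286 CPM in spleen. Il5 was at 40.2 and 4.98 CPM in skin against 0 CPM in both spleen libraries. Pooled, Il5 had 177 counts in skin and 0 in spleen, 66.8-fold higher with spleen set at 3 counts. That ratio covers counting error only, not the spread between the 2 skin libraries. The fitted change of Il5 (5.45) was 3.34 without WT skin replicate 1 and 6.29 without WT skin replicate 2, and its call was lost without WT spleen replicate 1 or 2, or KO skin replicate 1 or 2 (edgeR adjusted p = 0.0594 to 0.0899). The fit of the 4 WT libraries alone did not call it either (edgeR adjusted p = 0.0811). Csf2 was at 60.4 and 2.49 CPM in skin against 0 and 0.286 CPM in spleen and did not pass (edgeR adjusted p = 0.0809). Tgfb1 (16.8 and 20.6 CPM in skin against 10.1 and 11.4 CPM in spleen) and the enkephalin precursor gene Penk (170.4 and 167 CPM in skin against 128 and 65.3 CPM in spleen) did not pass either, and the lymphotoxin gene Lta (-1.18) fell. The Lta call was lost without WT spleen replicate 1 (edgeR adjusted p = 0.0984).

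The promoter of Areg is shown with its cAMP response element, TGACGTCA, in capitals (GRCm38.p6, chr5:91139349-91139648, plus strand). This element occurs in 3.41% of the 8914 promoters and in 3.44% of those of the genes higher in skin, which is close to the share over all genes.
Areg: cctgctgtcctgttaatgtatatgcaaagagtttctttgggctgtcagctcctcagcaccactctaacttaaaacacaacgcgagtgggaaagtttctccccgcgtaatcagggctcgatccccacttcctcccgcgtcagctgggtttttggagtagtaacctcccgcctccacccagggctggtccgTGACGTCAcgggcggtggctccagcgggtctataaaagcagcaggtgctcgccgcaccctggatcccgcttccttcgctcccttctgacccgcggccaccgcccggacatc

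Among genes of costimulatory and coinhibitory receptors, mostly of the immunoglobulin family, 10 of 21 rose and 6 fell, median 0.72. Icos was at 2701 and 2747 CPM in skin against 378 and 314 CPM in spleen (2.97 ± 0.118), Tigit at 559 and 598 CPM in skin against 108 and 127 CPM in spleen and Klrg1, a marker of terminal effector cells, at 1792 and 1100.3 CPM in skin against 231 and 232 CPM in spleen. Havcr2 (TIM-3) was at 99.4 and 84.7 CPM in skin against 4.91 and 0.286 CPM in spleen (4.81 ± 0.572, or 6.80 without WT spleen replicate 1 and 4.11 without WT spleen replicate 2). Cd96, which competes with Tigit for the same ligand, went down, at 25.4 and 27.8 CPM in skin against 253 and 247 CPM in spleen (-3.21 ± 0.146), together with Btla (-1.88), Cd200 (-1.53), Cd160 (-1.90) and Slamf6 (-0.94). Pdcd1 (1.36), Lag3 (1.77), Cd274 (1.65) and Cd28 (1.09) rose.

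Receptors of the TNF family outside the Treg identity list showed 3 higher and 7 lower of 14. Tnfrsf1b (TNFR2), a Treg growth receptor, was at 688 and 793 CPM in skin against 219 and 235 CPM in spleen (1.70 ± 0.115), and the death receptor gene Tnfrsf10b at 44.4 and 44.1 CPM in skin against 4.45 and 2.29 CPM in spleen. Tnfrsf26 (-2.14), Tnfrsf14 (-1.30) and Tnfrsf25 (-0.74) were lower. The lower count fell to 4 without WT spleen replicate 2. Cytokine receptors outside the IL-2 system were 9 higher and 8 lower of 27, median 0.22. Il10ra (412 and 307 CPM in skin against 139 and 142 CPM in spleen) and the IL-18 receptor chain gene Il18rap (189 and 208 CPM in skin against 54.5 and 50.9 CPM in spleen) rose, and Il1rl1, the IL-33 receptor ST2 of tissue Tregs, was at 362 and 223 CPM in skin against 99.7 and 73.3 CPM in spleen (edgeR adjusted p = 0.0242). The Il1rl1 call was lost without WT spleen replicate 1 or 2 (edgeR adjusted p = 0.0898 to 0.144). Tgfbr2 (82.6 and 85.8 CPM in skin against 204 and 209.8 CPM in spleen), Tgfbr3 (-3.82) and the IL-6 signalling chain gene Il6st (-0.98) fell. The IFN-γ receptor was split, Ifngr1 at 0.89 and Ifngr2 at -1.49.

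**Figure D3:**
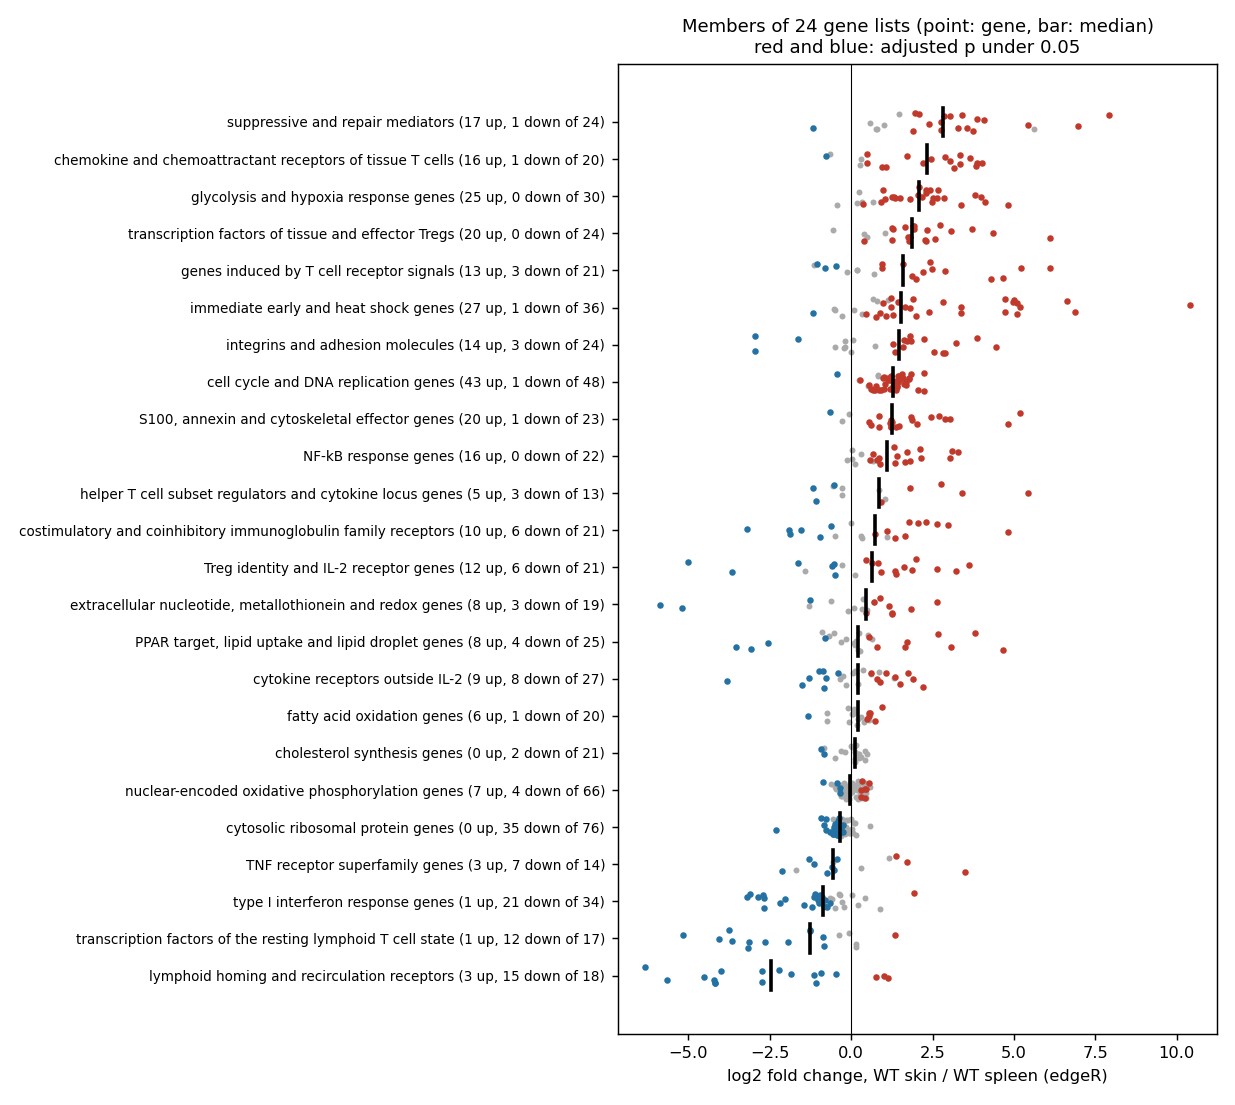
Each point is a gene of 1 of 24 lists, placed by its log2 fold change of WT skin over WT spleen (x axis), with red for higher and blue for lower at an adjusted p under 0.05 in edgeR, grey for the rest, and a black bar at the median. The median is -2.47 for the lymphoid homing and recirculation list and 2.07 for glycolysis and hypoxia genes, against -0.04 for all genes tested.

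Genes induced by T cell receptor signals were 13 higher and 3 lower of 21, median 1.59. The orphan receptor gene Nr4a1, a common reporter of receptor signalling, was at 2392 and 2452 CPM in skin against 120.3 and 126 CPM in spleen (4.29 ± 0.173), and its relatives Nr4a2 (6.10 ± 0.448, or 7.12 without WT spleen replicate 1) and Nr4a3 (4.66 ± 0.281) rose with it. Cd69, which blocks exit from tissue, was at 1043 and 1081 CPM in skin against 240.1 and 289.6 CPM in spleen, and the G protein regulator genes Rgs1 (2.21) and Rgs2 (5.22) rose. Egr2 (8.39 and 13.9 CPM in skin against 28.8 and 17.7 CPM in spleen) and Cd5 (668 and 643 CPM in skin against 905 and 898 CPM in spleen) were lower, while Myc, Egr3, Nfatc1 and Nfatc2 did not pass. The Egr2 call was lost without WT spleen replicate 1, or WT skin replicate 1 (edgeR adjusted p = 0.279 to 0.363). It was lost as well without robust estimation (edgeR adjusted p = 0.0505) and in DESeq2 (adjusted p = 0.0648). The Cd5 call was lost without WT spleen replicate 1 or 2, or WT skin replicate 1 or 2 (edgeR adjusted p = 0.0781 to 0.121). Without WT skin replicate 1 or WT spleen replicate 1 the lower count was 1.

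NF-κB response genes were 16 higher and 0 lower of 22, median 1.10. The inhibitors that close the pathway were among them, with Nfkbia at 4433 and 4502 CPM in skin against 408 and 518 CPM in spleen (3.27 ± 0.120) and Tnfaip3 at 678 and 837 CPM in skin against 74.2 and 109 CPM in spleen (3.05 ± 0.183). Nfkbid (3.09), Map3k8 (2.12), Nfkb1 (1.40) and Rel (2.47) rose, and Rela (111 and 109 CPM in skin against 98.5 and 102 CPM in spleen) did not pass. The survival genes diverged: Bcl2l1 (BCL-XL) was at 263 and 296 CPM in skin against 84.5 and 83.3 CPM in spleen (1.73 ± 0.136), opposite to the fall of Bcl2 from 375 and 363 CPM.

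Immediate early and heat shock genes, a set that tissue dissociation is known to induce, moved in the same direction, 27 of 36 higher and 1 lower, median 1.55. Their summed level was 26445 and 30121 CPM in skin and 5685 and 5455 CPM in spleen. Junb alone was at 7621 and 11817 CPM in skin against 345 and 383 CPM in spleen, Dusp1 at 2192 and 3012 CPM in skin against 65.8 and 85.00 CPM in spleen and Fos at 835 and 650.2 CPM in skin against 28.8 and 26.6 CPM in spleen. Gadd45b was at 1081 and 1179 CPM in skin against 28.8 and 32.9 CPM in spleen (5.17 ± 0.138, edgeR adjusted p = 5.93e-14) and Ppp1r15a at 1154 and 935 CPM in skin against 31.8 and 31.8 CPM in spleen. Egr1 (43.2 and 28.5 CPM in skin against 61.3 and 43.2 CPM in spleen) and Ier2 (59.4 and 98.2 CPM in skin against 124 and 96.7 CPM in spleen), members of the same set, did not pass, and Dusp2 (-1.17) fell, 1 of 2 members lower without WT skin replicate 2. The levels of this set move with tissue in all 8 libraries, and its part in the T cell receptor, NF-κB, Il10 and AP-1 results was not tested.

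Glycolysis and hypoxia response genes rose in 25 of 30 cases and fell in 0, median 2.07. Uptake of glucose was represented by Slc2a1, at 174 and 186 CPM in skin against 33.9 and 29.2 CPM in spleen (2.49 ± 0.155), and the first enzyme by Hk2, at 20.2 and 23.1 CPM in skin against 0.468 and 0 CPM in spleen (4.80 ± 0.487). Further down the pathway Aldoa was at 3620.3 and 3855 CPM in skin against 516 and 517 CPM in spleen (2.85 ± 0.0946), Tpi1 at 996 and 1131 CPM in skin against 167 and 169 CPM in spleen, Gapdh at 734 and 815 CPM in skin against 176 and 169 CPM in spleen and Pkm at 2177 and 2285 CPM in skin against 655 and 627 CPM in spleen. Ldha, which makes lactate, rose by 1.30, and Slc16a3, the lactate exporter gene, was at 202 and 226 CPM in skin against 13.3 and 16.6 CPM in spleen (3.80 ± 0.166). Hypoxia targets outside glycolysis rose as well, with Egln3 at 129 and 209 CPM in skin against 9.59 and 8.59 CPM in spleen, Bnip3 at 72.3 and 86.8 CPM in skin against 4.68 and 4.29 CPM in spleen and Ndrg1 at 240.5 and 246 CPM in skin against 39.8 and 45.5 CPM in spleen. The mitochondrial gatekeeper kinase gene Pdk1 (83.4 and 121 CPM in skin against 129.6 and 143 CPM in spleen), another such target, did not pass, nor did Hif1a, and 1 member was called lower without WT skin replicate 2. Several of these genes have processed pseudogenes, and the handling of reads that match several places is not stated.

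The Hk2 promoter is printed with matches to the hypoxia response core in capitals, ACGTG on either strand (GRCm38.p6, chr6:82774405-82774704, minus strand). The core lies in 57.7% of the 26 glycolysis and hypoxia promoters, in 26.7% of the 8914 and in 29.7% of those of all genes higher in skin.
Hk2: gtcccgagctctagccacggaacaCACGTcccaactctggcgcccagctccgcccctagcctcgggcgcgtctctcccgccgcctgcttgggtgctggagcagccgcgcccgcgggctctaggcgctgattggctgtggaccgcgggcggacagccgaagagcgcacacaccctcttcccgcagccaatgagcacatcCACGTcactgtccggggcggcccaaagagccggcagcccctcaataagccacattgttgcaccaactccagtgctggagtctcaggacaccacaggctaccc

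Lipid genes did not move as a block, beside 16.6% higher and 15.2% lower of all genes tested. Of 25 PPAR target, uptake and lipid droplet genes 8 rose and 4 fell, median 0.22, and without WT skin replicate 1 these counts were 5 and 1. The droplet gene Hilpda was at 473 and 407 CPM in skin against 17.3 and 16.03 CPM in spleen (4.67 ± 0.172), Plin2 at 358 and 233 CPM in skin against 28.6 and 42.1 CPM in spleen (3.06 ± 0.262) and the triglyceride synthesis gene Dgat1 at 229 and 179.7 CPM in skin against 30.2 and 34.1 CPM in spleen (2.65 ± 0.273). Gpt2, an alanine aminotransferase gene, was at 139 and 104 CPM in skin against 10.3 and 5.72 CPM in spleen (3.82), and the fatty acid carrier gene Fabp5 at 22.4 and 25.6 CPM in skin against 6.79 and 7.15 CPM in spleen. The cholesterol efflux genes Abca1 and Abcg1 (113 and 116 CPM in skin against 107 and 108 CPM in spleen) did not pass, and the lipolysis inhibitor gene G0s2 fell, at 0.493 and 0.356 CPM in skin against 6.55 and 3.72 CPM in spleen. The G0s2 call was lost without WT spleen replicate 1 (edgeR adjusted p = 0.0745). Without WT skin replicate 2 the lower count was 2, as it was without either WT spleen library, and without WT spleen replicate 2 the higher count was 5.

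Fatty acid oxidation genes were 6 higher and 1 lower of 20, with a median of only 0.20, from Etfb at 0.95 to Decr1 at -1.31. Cpt1a, the entry enzyme of mitochondria, was at 202 and 185 CPM in skin against 118 and 140.2 CPM in spleen (0.58 ± 0.143). The Cpt1a call was lost without WT spleen replicate 1 (edgeR adjusted p = 0.0695). Cholesterol synthesis genes were 0 higher and 2 lower of 21, these being Sc5d (-0.84) and Dhcr7 (-0.91, a call lost without WT spleen replicate 1, or WT skin replicate 2 (edgeR adjusted p = 0.0711 to 0.0836)). Without WT skin replicate 1 or 2, 1 sterol gene was called higher, without WT skin replicate 2 or WT spleen replicate 1 the lower count was 1, and without WT skin replicate 2 there were 2 lower oxidation genes. Beside 16.6% higher and 15.2% lower of all genes tested, nuclear-encoded oxidative phosphorylation genes were 7 higher and 4 lower of 66. Their median of -0.02 was the flattest of the metabolic groups. Without WT spleen replicate 2 both of these counts were 1, without WT skin replicate 2 they were 4 and 1, and the lower count was 1 or 2 without any other library. Between 1.36% and 1.64% of the counts in the 4 libraries came from the mitochondrial genome.

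Cell cycle and DNA replication genes rose in 43 of 48 cases, with 1 lower (the cyclin gene Ccnd3, -0.44, a call lost without WT spleen replicate 2, or WT skin replicate 1 (edgeR adjusted p = 0.0545 to 0.107)) and a median of 1.29. Mki67, the common proliferation marker, was at 332 and 359 CPM in skin against 173 and 172 CPM in spleen (1.00 ± 0.125). Top2a, which untangles replicated DNA, was at 648 and 706 CPM in skin against 216 and 249 CPM in spleen (1.54 ± 0.132). The mitotic kinase gene Cdk1 was at 195 and 239 CPM in skin against 42.8 and 48.4 CPM in spleen (2.24 ± 0.156) and the cytokinesis motor gene Kif23 at 163 and 189 CPM in skin against 32.1 and 42.1 CPM in spleen. Replication genes changed less, with Mcm6 at 1.12, Pcna at 0.92 and Mcm4 at 0.62. E2f1 (7.65 and 7.47 CPM in skin against 5.15 and 5.15 CPM in spleen) and Ccne1 (26.6 and 40.9 CPM in skin against 29.5 and 26.9 CPM in spleen), which open S phase, did not pass. These rose in libraries in which the arrest gene Cdkn1a was also far higher.

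The Cdk1 promoter shows letters that recur in this group (GRCm38.p6, chr10:69352863-69353162, minus strand), with capitals for the cell cycle homology element TTTGAA and the CCAAT box on either strand. CCAAT lies in 76.3% and TTTGAA in 42.1% of the 38 cell cycle promoters, against 39.5% and 12.3% of the 8914.
Cdk1: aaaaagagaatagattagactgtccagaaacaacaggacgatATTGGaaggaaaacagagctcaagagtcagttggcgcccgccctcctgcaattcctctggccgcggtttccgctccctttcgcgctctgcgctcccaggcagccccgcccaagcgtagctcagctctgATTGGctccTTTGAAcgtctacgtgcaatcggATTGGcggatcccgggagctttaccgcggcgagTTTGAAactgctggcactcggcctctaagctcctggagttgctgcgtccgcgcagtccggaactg

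Type I interferon response genes were lower in skin, 21 of 34 lower and 1 higher, median -0.86. Ifi27l2a was at 99.4 and 123 CPM in skin against 288 and 322 CPM in spleen (-1.46 ± 0.164), Usp18, which turns the receptor off, at 5.67 and 4.27 CPM in skin against 27.8 and 43.2 CPM in spleen (-2.69 ± 0.343), and the antiviral gene Ifit1 at 1.23 and 6.76 CPM in skin against 25.5 and 50.7 CPM in spleen (-3.20 ± 0.673). The Ifit1 change was -2.39 without WT skin replicate 1, -4.45 without WT skin replicate 2 and -2.61 without WT spleen replicate 2. The factor genes Irf9 (-0.98) and Irf7 (-0.94, a call lost without WT spleen replicate 1 (edgeR adjusted p = 0.0737)) fell, while the factor gene Stat2 (67.8 and 68.7 CPM in skin against 69.5 and 97.3 CPM in spleen) did not pass. Ly6a, the 1 member that rose (2 without WT spleen replicate 2), was at 364 and 306 CPM in skin against 66.9 and 110.5 CPM in spleen. Isg15, the ubiquitin-like product of this response, was low in both tissues at 1.97 and 3.56 CPM in skin against 3.51 and 5.15 CPM in spleen.

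The Ifit1 promoter carries the interferon response core, GAAANNGAAA on either strand, in capitals (GRCm38.p6, chr19:34640639-34640938, plus strand). The core lies in 45.8% of the 24 interferon gene promoters and in 3.12% of the 8914.
Ifit1: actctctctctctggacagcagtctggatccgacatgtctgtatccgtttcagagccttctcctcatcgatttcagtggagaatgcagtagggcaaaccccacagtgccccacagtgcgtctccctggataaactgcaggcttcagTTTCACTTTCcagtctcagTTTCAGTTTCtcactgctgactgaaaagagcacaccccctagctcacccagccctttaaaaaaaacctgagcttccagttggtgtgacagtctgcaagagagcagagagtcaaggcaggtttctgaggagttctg

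Structural and calcium-binding genes rose in 20 of 23 cases, median 1.25. Vim, an intermediate filament gene, was at 22279.9 and 26323 CPM in skin against 3107 and 2779.6 CPM in spleen (3.05 ± 0.0994). Lmna, which encodes the nuclear lamins A and C, was at 2817 and 3244 CPM in skin against 108 and 108 CPM in spleen (4.80 ± 0.206). Anxa1, an inflammation-resolving annexin gene, was at 243 and 173 CPM in skin against 5.38 and 4.87 CPM in spleen (5.20 ± 0.268). S100a4 (2.88), S100a6 (2.46) and Anxa2 (2.02) rose, Actb changed by 0.54, and Tmsb10 (-0.65) fell. The Tmsb10 call was lost without WT skin replicate 1 (edgeR adjusted p = 0.0677). Purine and redox genes were mixed, 8 higher and 3 lower of 19, beside 16.6% higher and 15.2% lower of all genes tested. Adora2a, the adenosine receptor gene of suppressed T cells, was at 130.5 and 117 CPM in skin against 52.2 and 50.9 CPM in spleen (1.26 ± 0.179), opposite to the ATP receptor genes P2rx7 (-5.18) and P2rx4 (-1.26). Prdx1 (1.18), Txn1 (1.25) and the metallothionein gene Mt1 (2.63, or 3.43 without WT spleen replicate 2) rose.

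Cytosolic ribosomal protein genes were slightly lower in skin, 35 of 76 called lower and 0 higher, median -0.35. They took 1.96% and 2.21% of counts in skin and 3.34% and 2.99% in spleen. Rplp0, a subunit of the ribosomal stalk, was at 2091 and 2214 CPM in skin against 3009.7 and 2716 CPM in spleen (-0.41 ± 0.0922), with its call lost without WT spleen replicate 1 (edgeR adjusted p = 0.0630). Rps2 had the largest change, -2.32 ± 0.309. Without WT spleen replicate 1 only 4 members were called lower, and without WT skin replicate 1 there were 8. In the KO libraries 3 members were lower and the median was -0.08. The difference between genotypes passed for none of the 76, with the smallest edgeR adjusted p of 0.0866 for Rps2.

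Markers of other cell types were present at different levels in the 4 libraries. Summed over 12 keratinocyte genes the level was 36.8 and 29.9 CPM in skin and 11.2 and 8.01 CPM in spleen, with 2 members tested and Perp (24.7 and 17.8 CPM in skin against 2.11 and 1.14 CPM in spleen) higher. The defining keratin genes Krt5 and Krt14 had 3 and 7 counts in skin replicate 1 and 2 and 4 in replicate 2, and Krt1 and Lor had 0 in all 4 libraries. Summed over 9 fibroblast genes it was 18.5 and 14.2 CPM in skin and 4.45 and 6.30 CPM in spleen, with Col1a1 at 15.8 and 11.4 CPM in skin against 1.404 and 2.29 CPM in spleen and Pdgfra and Lum at 0 in all 4. The dendritic and Langerhans cell sum of 127 and 145 CPM in skin against 33.9 and 24.6 CPM in spleen came mostly from Xcr1 and Cd74, and Cd207, the Langerhans cell marker, had 0 counts in all 4 libraries. The B cell sum was 705 and 594 CPM in skin and 978 and 976 CPM in spleen, nearly all of it Ighm, and Ms4a1 and Pax5 had 0 counts in all 4 libraries. The CD8 T and NK cell sum was 345 and 311 CPM in skin and 103 and 134 CPM in spleen, led by Nkg7 at 308 and 299 CPM in skin against 74.9 and 108 CPM in spleen, with at most 5 counts of Cd8a in a library. The γδ T cell segment Trdv4 was at 0.740 and 12.8 CPM in skin against 0 CPM in both spleen libraries (3.72, or 4.61 without WT skin replicate 1 and 1.28 without WT skin replicate 2). This call was lost without WT spleen replicate 1, or WT skin replicate 2 (edgeR adjusted p = 0.0503 to 0.222), and in limma-voom (adjusted p = 0.0646). Mast cell genes summed to 19.5 and 29.2 CPM in skin and 4.21 and 2.58 CPM in spleen, with Kit at 15.5 and 22.1 CPM in skin against 1.87 and 0.572 CPM in spleen (3.42, or 4.11 without WT spleen replicate 1) and Mcpt4, Tpsb2, Cma1 and Fcer1a at 0 in all 4. Endothelial genes summed to 141 and 92.2 CPM in skin and 288 and 273 CPM in spleen, nearly all Pecam1, and myeloid genes to 164 and 148 CPM in skin and 226 and 292 CPM in spleen, mostly Ctss. Melanocyte genes, mostly Pmel, summed to 8.39 and 9.96 CPM in skin and 26.2 and 36.6 CPM in spleen, and erythroid and platelet genes to 1.73 and 2.85 CPM in skin and 13.6 and 11.4 CPM in spleen. The marker genes named at or near 0 are not all of their lists, and others had more counts. In WT skin replicates 1 and 2, Krt17 had 12 and 1 counts, Itgax 14 and 0, Ncr1 11 and 0 and Siglech 0 and 9. Pooled counts in WT spleen were 25 for Cd79a, 35 for Csf1r and 16 each for C1qa and C1qb. In WT skin they were 3, 2, 0 and 0. The part of such cells in the gene results was not tested. For comparison, the Treg identity genes summed to 12234 and 12168 CPM in skin and 6857 and 6534 CPM in spleen.

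**Figure D4:**
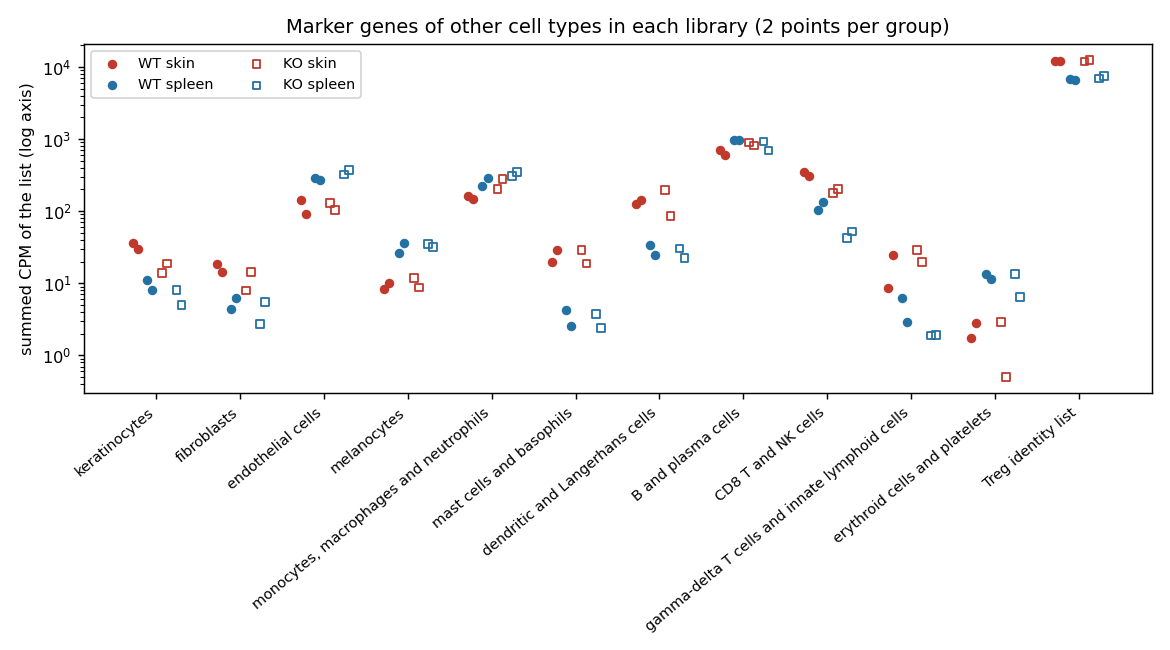
Summed CPM of marker genes of 11 other cell types and of the Treg identity list (y axis, log axis, values under 0.5 drawn at 0.5) in each library, with filled circles for WT and open squares for KO, red for skin and blue for spleen. The keratinocyte sum is at most 36.8 CPM and the fibroblast sum at most 18.5 CPM in any library, while the lowest Treg identity sum is 6534 CPM.

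The same tissue contrast in mice with Pparg deleted in Foxp3-expressing cells used 4 other libraries. It called 3596 of 12414 genes (29%), 2019 higher and 1577 lower in KO skin. Of the 3944 WT calls, 2524 were also called in the same direction there, which is 64.0% of the WT calls and 70.2% of the KO calls, and 5 were called in opposite directions. The share was 72.3% for genes higher in WT skin and 54.9% for genes lower in it. Across all genes the log2 fold changes of the 2 genotypes had a Pearson r of 0.81, a description over genes that are not independent replicates. Medians for groups of genes were 1.86 in WT and 2.19 in KO for tissue Treg factors, 2.07 and 2.19 for glycolysis, 1.29 and 1.41 for the cell cycle, -0.86 and -0.91 for interferon genes. The homing and recirculation list was at -2.47 and -2.02. Areg changed by 6.99 in KO, Il10 by 6.05, Ctla4 by 2.95, Bcl2 by -5.51 and Ccr7 by -3.31.

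The tissue effect itself differed between WT and KO for 12 genes (0.0967% of those tested, 1178 at an unadjusted p under 0.05), and all 12 were among the WT calls. The WT value minus the KO value was negative for 9 of them and positive for 3. The number depended on the method, with 96 in DESeq2, 59 in limma-voom and 233 when all genes with a count were tested. Tcf7 fell more in WT than in KO, where it was at 34.1 and 31.98 CPM in KO skin against 349 and 327 CPM in KO spleen, a difference of -1.83 ± 0.284, edgeR adjusted p = 0.0202. Cd96 behaved likewise, at 69.8 and 66.4 CPM in KO skin against 264 and 294 CPM in KO spleen (-1.18 ± 0.192, edgeR adjusted p = 0.0202). Tpi1, the glycolytic enzyme gene, rose less in WT (2.66) than in KO (3.55), a difference of -0.89 ± 0.146, edgeR adjusted p = 0.0202. Vars, the valyl-tRNA synthetase gene, was lower in WT skin at 72.8 and 108 CPM in skin against 183 and 170.0 CPM in spleen and higher in KO skin at 150.4 and 191 CPM in KO skin against 86.3 and 73.1 CPM in KO spleen (-2.06 ± 0.253, edgeR adjusted p = 0.00446). Psmd3, a proteasome subunit gene, was at 14.6 and 31.3 CPM in skin against 190.0 and 175 CPM in spleen in WT and 52.6 and 67.6 CPM in KO skin against 60.7 and 42.2 CPM in KO spleen in KO (-3.23 ± 0.397, edgeR adjusted p = 0.0114). Rrs1, a ribosome assembly gene (-3.61 ± 0.530, edgeR adjusted p = 0.0114), the palmitoyltransferase gene Zdhhc3 (-1.58 ± 0.261, edgeR adjusted p = 0.0202) and the ubiquitin ligase gene Peli1 (-1.45 ± 0.242, edgeR adjusted p = 0.0257) had the same pattern, with a fall in WT and no call in KO. The 3 positive differences lay outside the 8 genes of smallest p and are named after their values were seen. Calcrl, a receptor subunit gene, was at 202 and 119 CPM in skin against 28.8 and 29.2 CPM in spleen in WT (difference 1.89 ± 0.326, edgeR adjusted p = 0.0257), and Jup, a junction protein gene, at 87.6 and 49.5 CPM in skin against 12.4 and 10.3 CPM in spleen (difference 2.95 ± 0.518, edgeR adjusted p = 0.0257). In KO, Calcrl was at 63.7 and 55.8 CPM in skin against 35.1 and 45.3 CPM in spleen. Jup was at 5.55 and 4.53 CPM in KO skin against 5.13 and 8.54 CPM in KO spleen, and neither gene was called in KO. The stress-response gene Sesn1 fell less in WT (-1.24) than in KO (-2.26), a difference of 1.03 ± 0.176, edgeR adjusted p = 0.0257. The count of 12 became 1 without KO skin replicate 1, 3 without KO skin replicate 2, 2 without WT skin replicate 1 and also 2 without WT spleen replicate 2. It became 146 without WT skin replicate 2 and 145 without KO spleen replicate 1. Vars passed under each of 17 alternatives. The other 7 of the 8 genes of smallest p lost their calls without KO skin replicate 1 (edgeR adjusted p = 0.106 to 0.14), and without WT skin replicate 1 that of Tcf7 was 0.113 with a difference of -1.32.

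**Figure D5:**
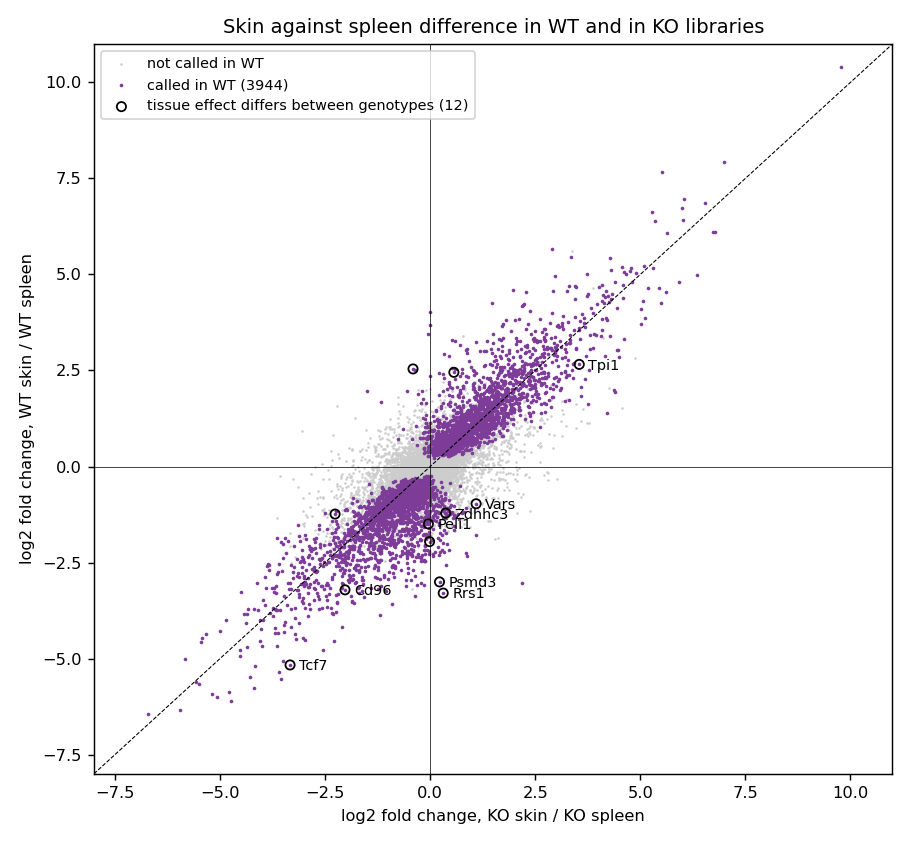
Log2 fold change of skin over spleen in KO (x axis) against WT (y axis), 1 point per gene, with the 3944 WT calls in purple and the dashed line marking equal change. Circles mark the 12 genes whose tissue effect differed between the genotypes, and Psmd3, Rrs1 and Tcf7 lie below the line.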

How the data were processed

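RNA from sorted mouse Tregs was sequenced in 8 libraries (2 per genotype and tissue, 25-base reads per the labels). The authors deposited unnormalized read counts, 1 row for each gene symbol and 1 column for each library. Per the submitters' processing notes the authors used STAR 2.7.3a, featureCounts and mm10. Neither the annotation and strand setting nor the handling of multi-mapping reads is stated there. Near-identical copies, overlapping genes and antisense partners are therefore uncertain.

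Of 55011 symbols in the table, 28902 had a count and 12414 passed edgeR's filterByExpr (minimum count 10). edgeR 4.0.16 (R 4.3.3) scaled libraries by TMM and fitted all 8 libraries, 4 groups sharing 1 robust estimate of the spread, with a quasi-likelihood F-test, prior count 2 and Benjamini-Hochberg adjustment. Replicates varied with a common biological coefficient of variation of 17.5%. The difference of the tissue effect between genotypes was tested as an interaction in the same fit. The fit was tested on simulated data first. Replicates of a group differed by more than sampling noise (chi-square per degree of freedom 4.48 to 7.32), so none was counted as a duplicate. Ratios of pooled counts have exact 95% intervals, and a group at 0 was set at 3 counts. Both cover counting error only.

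Members and gene lists were chosen with earlier results of these data known, and promoter motifs after values were seen. Named genes are Foxp3, Pparg, the 15 largest changes in each direction with a mean of at least 10 CPM and non-overlapping libraries (predicted, clone-named, pseudogene, receptor-segment and sex-linked genes left out), members of the lists, those of smallest p first, and up to 8 genes of smallest p for the interaction. Promoters are RefSeq windows (GRCm38.p6), matched by symbol for 8914 of the tested genes, and 10 motifs were searched on both strands. TGACG lies within TGACGTCA, which ACGTG can overlap. Alternatives were RLE (relative log expression) and upper-quartile scaling, DESeq2 1.42.0, limma-voom (limma 3.58.1), no low-count filter, a minimum count of 30, the 4 WT libraries alone, a replicate block, no robust estimation and a test against a 1.5-fold change. Each of the 8 libraries was also left out once. A few list members are not reported here by name but remain in the counts.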

Additional observations from a re-analysis of the deposited data

Results flagged for a closer look

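The tissue effect differed between WT and KO, by edgeR's interaction test, for these 8 genes of smallest p, given as the log2 fold change of skin over spleen in WT minus that in KO. Vars (-2.06), Psmd3 (-3.23), Rrs1 (-3.61), Tcf7 (-1.83), Cd96 (-1.18), Tpi1 (-0.89), Zdhhc3 (-1.58) and Peli1 (-1.45) all had a lower value in WT. Of all 12 genes that passed, 9 differences were negative and 3 positive, those of Sesn1 (1.03), Calcrl (1.89) and Jup (2.95). Over 17 alternatives, run for the 8 genes of smallest p, Vars passed in 17, Rrs1 in 15, Psmd3 in 14, Tcf7 in 12, Cd96 in 11, Zdhhc3 and Peli1 in 10 and Tpi1 in 9.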

How the results depend on the processing

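Of the 18 alternatives, a fold threshold of 1.5 left 1877 genes called in WT (1033 higher, 844 lower), 1205 called in both genotypes and 3 differing between them. The number of genes whose tissue effect differed was 96 in DESeq2, 59 in limma-voom and 233 when all genes with a count were tested. The cause was not tested. Leaving out 1 library at a time gave 2633 to 3927 calls, 1473 to 2163 higher and 1160 to 1856 lower, 1950 to 2196 called in both genotypes and 1 to 146 differing between them. No scaling moved the median of all genes by over 0.1 on the log2 scale. Leaving out single libraries turned the sign of 5 named genes that were not called, which ranged from -0.19 to 1.16 for Gpr15, -0.024 to 0.72 for Hif1a, -1.09 to 0.066 for Cxcr3, -1.16 to 0.59 for Tbx21 and -0.077 to 0.53 for Ccne1. Same-numbered replicates share a sex but are not shown to be paired: their deviations correlated at 0.028 to 0.112 over group pairs. Without Xist, Tsix and Y-linked genes these correlations were -0.031 to 0.052. With the replicate block 3911 genes were called (2050 higher, 1861 lower), 2516 in both genotypes, and 16 differed between them. Of the called genes named in the text, the block ended the call of Egr2 (edgeR adjusted p = 0.051) and of no other. The fold threshold of 1.5 ended the calls of 25 of the 219 named genes. With 2 libraries a group, small changes of low genes were not resolved.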

Other observations

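Gene coordinates and gene classes were taken from the GENCODE annotation. Among genes more than 4-fold lower in skin, 67.2% of the 473 with coordinates were protein-coding and 123 were long non-coding RNA genes. Among the 475 more than 4-fold higher, 85.7% were protein-coding and 49 were long non-coding. Over all 12197 genes with coordinates the share was 85.5%, and 1162 were long non-coding. Without a known strand setting, reads of a non-coding gene cannot be told from those of an overlapping gene.

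Other motif shares are given as descriptions of promoter letters. The AP-1 letters TGANTCA lay in 8.41% of the 321 promoters of genes more than 4-fold higher in skin and in 6.29% of the 286 more than 4-fold lower. They lay in 4.68% of the 8914 and in 7.93% of all 27025 promoters, tested or not. The GATA letters AGATAA lay in 11.2% of the 286, 6.85% of the 321, 6.43% of the 8914 and 11.4% of the 27025. The TCF/LEF letters CTTTGAT lay in 3.15% of the 286, 2.49% of the 321, 2.50% of the 8914 and 3.72% of the 27025. The half-site TGACG lay in 16 of 30 immediate early and heat shock promoters, 33.5% of the 8914 and 21.0% of the 27025.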
